A study of Homo sapiens with 18 samples.

Results

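The semaphorins, plexins and neuropilins were taken as every gene symbol of the deposited count table that is SEMA3 to SEMA7 with an optional letter A to G, PLXNA to PLXND with a digit, NRP1 or NRP2. This rule matched 31 of 60642 symbols. Of these, 27 had 10 or more counts in 3 or more of the 18 libraries and were used: 17 semaphorins, 8 plexins and 2 neuropilins. The other 4 were SEMA5A (0 counts in every library), SEMA5B and PLXNA4 (at most 8 counts in any library each) and SEMA6D (at most 2). The rule used no measured change, but its threshold uses measured counts, and the members were chosen with earlier results of these data known.

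RNA sequencing had been done on 18 libraries made from HT-29 and SW620, which are human colorectal cancer lines, as 6 groups with 3 libraries each. In HT-29 iZEB1, the line HT-29 carries a system that expresses ZEB1 when doxycycline (DOX) is given. ZEB1 is a transcription factor that represses epithelial genes during epithelial to mesenchymal transition. RepSox is an inhibitor of the TGF-beta type I receptor kinase ALK5. The 4 HT-29 iZEB1 groups all carried the construct and received DMSO (the solvent; called uninduced here), DOX and DMSO, RepSox without DOX, or DOX and RepSox. The 2 groups of SW620, for which no construct is named, received DMSO or RepSox. RepSox was given at 10 µM for 24 h. DOX was given at 1 µg/ml, for 24 h together with RepSox per the labels' protocol and for 48 h per the series' design text. The labels name no clone number, vector or promoter. No group received DOX without the ZEB1 construct, so that an effect of ZEB1 and one of DOX itself cannot be told apart. The labels do not say that the 3 libraries of a group came from separate cultures, so that every p-value rests on library-to-library spread alone, and this spread may be technical.

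Semaphorins are secreted or membrane-bound guidance cues, best known for steering growing axons and also for acting on blood vessels, immune cells and epithelia. Plexins are their transmembrane receptors: the cytoplasmic part acts on small GTPases of the Rap and R-Ras families and loosens the cytoskeleton and integrin adhesion. Most secreted class 3 semaphorins reach plexins through the co-receptors neuropilin 1 and 2, which also bind vascular endothelial growth factors, whereas class 4 to 7 semaphorins bind plexins directly. In carcinoma cells, class 3 and class 4 members have been described both as brakes on and as drivers of migration.

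Between 36511596 and 39792807 reads were counted to genes per library. Levels are given as CPM, counts scaled to a common library size, after the trimmed mean of M values (TMM) had corrected that size for differences in library make-up. ZEB1 was measured at 7.90, 7.38 and 10.4 CPM in the 3 uninduced libraries and at 372, 385 and 376 CPM with DOX. With RepSox and no DOX it was at 5.04, 5.38 and 5.73 CPM. It was at 14.6, 15.9 and 17.4 CPM with DOX and RepSox together, so the 2 DOX groups differed 23.8-fold in ZEB1 as well as in RepSox, and an effect of RepSox on the members and one of the lower ZEB1 cannot be told apart there. CDH1, the epithelial cadherin, was at 469.5 ± 16.2 (SD, n = 3) CPM without DOX and at 232 ± 5.71 CPM with DOX. Of 8 colon epithelial markers, 7 were above 1 CPM in uninduced HT-29 iZEB1, where CDX2 was not, and 5 in SW620, where KRT20, CDH17 and LGALS4 were not. CDH17 was near that limit in uninduced HT-29 iZEB1, at 1.32 CPM. CDX2 (0.339 against 9.17 CPM) and VIL1 (93.0 against 199.7 CPM) were higher in SW620 in DMSO, and the other markers of this list were lower there. The summed level of these 8 was 8215 to 10678 CPM in 3 HT-29 iZEB1 groups, 4332 to 4781 CPM with DOX and DMSO, and 5582 to 8545 CPM in SW620. Lists of 6 endothelial, 6 fibroblast and 8 neuronal and glial markers each summed to at most 12.8 CPM in any library, with the endothelial sum at 2.40 to 3.48 CPM uninduced and 10.4 to 11.5 CPM with DOX, and 7.91 to 9.70 CPM with RepSox, with or without DOX, in HT-29 iZEB1, where TEK was the one of these 6 above 1 CPM. Of 6 leukocyte markers only LYZ exceeded 1 CPM, at a mean of 1339 CPM in uninduced HT-29 iZEB1, 1760 CPM with DOX and DMSO, and 3.38 CPM in SW620 in DMSO. The part of these shifts in the results below was not tested.

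Per kilobase of exons (GENCODE 29), the members spanned over 3 orders of magnitude in uninduced HT-29 iZEB1. The receptor PLXNB2, which binds class 4 semaphorins, led at 52.6 ± 3.63 CPM per kilobase, followed by the ligand SEMA4B (34.8 ± 1.35), PLXNA1, a receptor of class 3 and class 6 semaphorins (22.6 ± 1.13), the SEMA4D receptor PLXNB1 (19.2 ± 0.454), SEMA4G (16.2 ± 0.300) and SEMA3C (13.7 ± 0.873; mean and SD of 3 libraries in each case). PLXNA1 and PLXNB1 stood close, with library ranges that did not overlap, and so did PLXNB1 and SEMA4G. At the lower end, SEMA6A, SEMA6C and NRP2 were each under 0.04 CPM per kilobase, and these 3 did not separate from each other beyond their spread. SW620 in DMSO also had PLXNB2 first (29.2 ± 1.40 CPM per kilobase), but there SEMA3A (22.3 ± 0.816), SEMA3B (18.1 ± 0.995), PLXND1 (14.7 ± 0.462) and PLXNB1 (14.6 ± 0.689) came next. PLXND1 and PLXNB1 overlapped between libraries in that line.

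**Figure D1:**
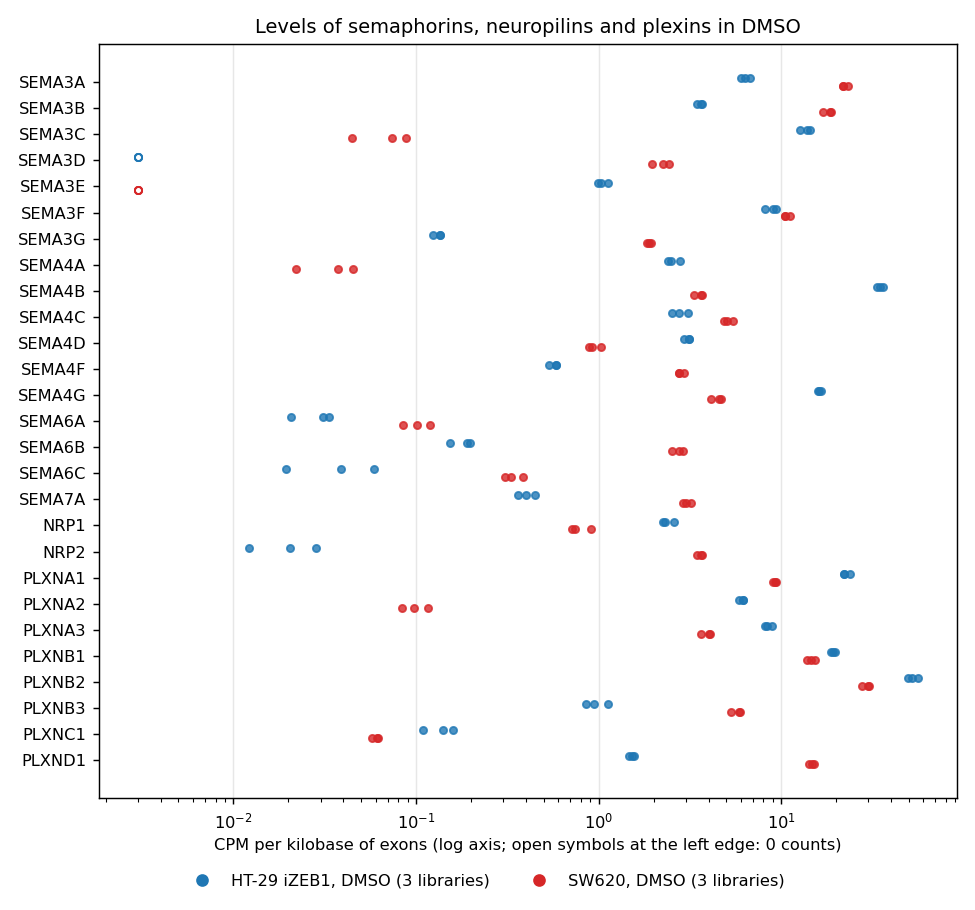
Level of each of the 27 members in DMSO, in CPM per kilobase of exons on a log axis, with 1 point for each of 3 uninduced HT-29 iZEB1 libraries (blue) and 3 SW620 libraries (red); open symbols at the left edge are libraries with 0 counts. SEMA3D was counted only in SW620 in this plot and SEMA3E only in HT-29 iZEB1, and NRP2, SEMA3C, SEMA4A and PLXNA2 lie furthest apart between the lines among members counted in both.

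The first question was how inducing ZEB1 changed this family. With DOX, in DMSO, the receptors PLXND1, PLXNB3 and NRP1 and the secreted ligands SEMA3B, SEMA3A and SEMA3C rose (1.46- to 2.34-fold), while the membrane-bound ligands SEMA4A, SEMA4G and SEMA4D, the secreted SEMA3E and the receptor PLXNB1 fell (1.39- to 2.62-fold). Also called higher were the membrane-bound ligands SEMA4C and SEMA6C and the receptor PLXNB2, and SEMA7A was called lower. SEMA6C, at low counts, rose by more than the range given. In bulk RNA, fewer cells that express a gene and less RNA per cell cannot be told apart. Of 26 members tested, 9 were called higher and 6 lower by edgeR's quasi-likelihood test (adjusted p below 0.05 over all genes), 11 not; 19.2% of all 16978 genes tested were called higher and 21.1% lower. The members' median log2 change was -0.05, beside 0.00 over all genes. Scaling by library totals alone gave the same members split of 9 and 6, while the share of higher calls among all called genes moved from 47.6% to 59.5%.

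The second question was how RepSox acted on the induced cells. With DOX present, RepSox lowered 12 of 26 members and raised 4, where 25.5% of all genes fell and 26.8% rose; the members' median was -0.19 and that of all genes -0.01. Among the 8 plexins, 5 fell and 1 rose. Without DOX, RepSox lowered 9 members and raised 4 (12.8% and 12.5% of all genes), with a members' median of -0.20. The members raised were 1 without uninduced library 1 or 3 or RepSox library 2 or 3, and 2 without uninduced library 2, without RepSox library 1 or without a filter on low counts; 9 were lowered in each case. In cells that had RepSox, DOX changed none of the 26 members by edgeR's test, where 0.477% of all genes were called in either direction; 5 members had an unadjusted p below 0.05, DESeq2 called 1, NRP1, and without the first DOX and RepSox library edgeR called 4 (SEMA3C 0.30, NRP1 0.30, SEMA4G -0.31 and SEMA4B -0.37 on the log2 scale, adjusted p 0.0105 to 0.0362) and 1670 genes in all, against 81. ZEB1 itself rose 2.98-fold with DOX in cells that had RepSox, against 44.3-fold in DMSO. A weaker response of the members to ZEB1 under RepSox and the smaller rise of ZEB1 there cannot be told apart. The comparisons of DOX in DMSO and of RepSox with DOX share the 3 DOX and DMSO libraries, so that their changes are given below as levels in all 4 groups.

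**Figure D2:**
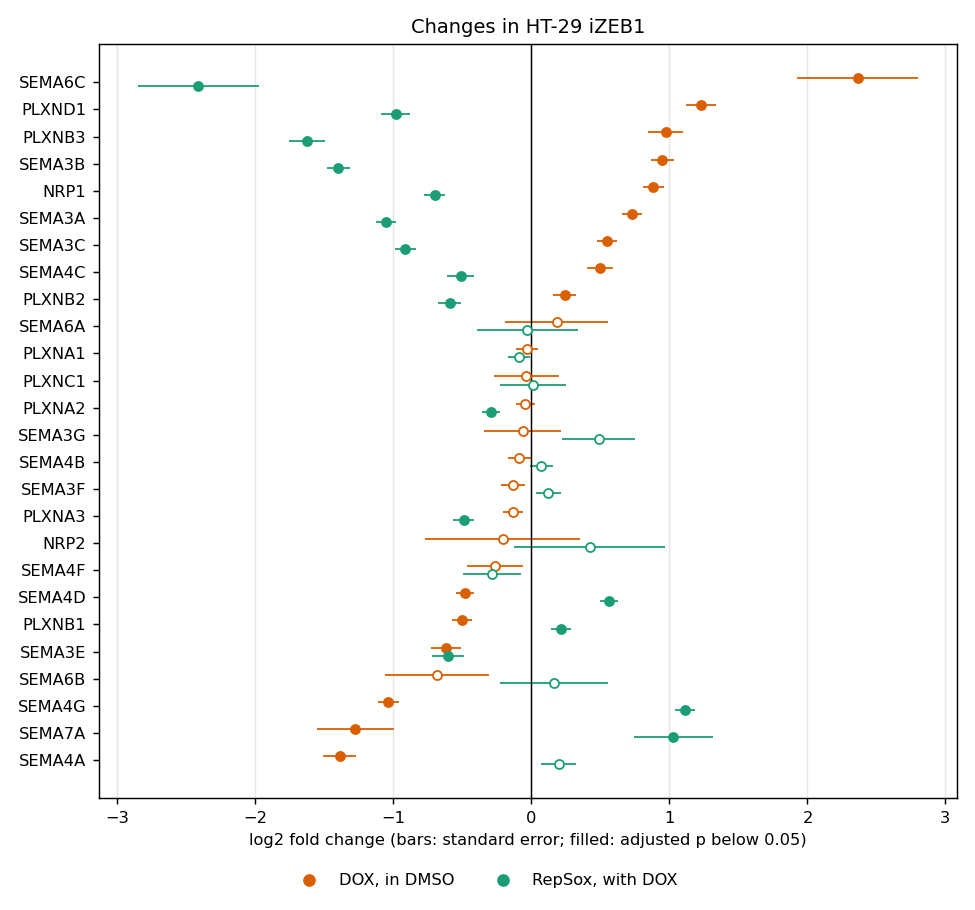
Log2 fold change with its standard error for the 26 members tested in HT-29 iZEB1, for DOX in DMSO (orange) and for RepSox in the presence of DOX (green); filled symbols have an adjusted p below 0.05. Both contrasts use the same DOX and DMSO libraries. SEMA3E is the member with filled symbols below 0 in both, and SEMA4A has a filled symbol for DOX and an open one for RepSox.

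Among the class 3 ligands, SEMA3A, which collapses growth cones through NRP1 and A-type plexins, was measured at 59.6, 56.4 and 63.3 CPM in the uninduced libraries, 101, 96.7 and 98.4 with DOX, 43.5, 49.8 and 43.7 with RepSox and 44.4, 48.96 and 50.1 with both. The 3 DOX libraries lay above the 9 others, and those with RepSox lay below the uninduced ones whether or not DOX was given. DOX raised SEMA3A 1.66-fold (log2 0.73 ± 0.07, adjusted p = 1.31e-07; ± is the standard error of a log2 change), and RepSox lowered it 2.08-fold with DOX and 1.32-fold without (log2 -0.40 ± 0.07, adjusted p = 4.70e-04). SEMA3B, a ligand encoded in a region of chromosome 3p that is often lost in lung cancer, stood at 21.1, 21.1 and 19.9 CPM uninduced, 36.5, 44.01 and 38.9 with DOX, 16.6, 15.3 and 14.9 with RepSox and 15.9, 15.3 and 14.4 with both. The DOX libraries were again the highest and all 6 RepSox libraries lay below the uninduced ones, with a rise of log2 0.95 ± 0.08 (adjusted p = 2.90e-08) with DOX and a 2.64-fold fall (log2 -1.40 ± 0.08, adjusted p = 1.31e-10) when RepSox was added to DOX. SEMA3C, a ligand of both neuropilins, was the highest class 3 member per kilobase in this line, at 86.9, 79.7 and 90.5 CPM, against 129, 119 and 126 with DOX, 61.9, 55.1 and 54.6 with RepSox and 59.9, 69.7 and 70.6 with both. Its rise with DOX was 1.46-fold, its fall with RepSox was 1.88-fold in induced and 1.51-fold in uninduced cells, and in none of these 3 comparisons did the libraries overlap.

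SEMA3E, which can bind PLXND1 without a neuropilin, fell with DOX: it was at 8.38, 9.50 and 8.70 CPM uninduced, 5.97, 5.64 and 5.66 with DOX, 3.69, 4.20 and 3.81 with RepSox and 3.67, 4.16 and 3.58 with both. Each treatment lowered it, DOX 1.53-fold (log2 -0.62 ± 0.11, adjusted p = 1.49e-04) and RepSox without DOX 2.28-fold (log2 -1.19 ± 0.11, adjusted p = 4.82e-07), and the 6 RepSox libraries overlapped with each other. SEMA3F, a ligand that prefers NRP2, kept overlapping libraries in all 4 groups (34.0 to 47 CPM) and was called in no comparison within HT-29 iZEB1. SEMA3G was low, at 0.659 ± 0.0322 CPM uninduced and 1.16 ± 0.0748 CPM with RepSox (SD, n = 3). Its call with RepSox (log2 0.80 ± 0.26, adjusted p = 0.0299) was lost when any of the 6 libraries was left out, with DESeq2 and without a filter, over an adjusted p range of 0.0257 to 0.0856 among alternatives. SEMA3D had 0 counts in 11 of 12 HT-29 iZEB1 libraries and was not tested there.

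The class 4 ligands, which are transmembrane proteins, moved in both directions. SEMA4A, known for its part in T-cell responses, was at 16.99, 18.9 and 16.4 CPM uninduced, 5.66, 7.49 and 6.78 with DOX, 9.27, 8.02 and 10.4 with RepSox and 8.64, 7.24 and 7.14 with both. All 9 treated libraries lay below the 3 uninduced ones. DOX lowered SEMA4A 2.62-fold (log2 -1.39 ± 0.12, adjusted p = 2.73e-08) and RepSox alone 1.90-fold, whereas RepSox in induced cells left overlapping libraries (log2 0.20 ± 0.12, adjusted p = 0.198). SEMA4G stood at 84.9, 83.3 and 86.4 CPM uninduced, 37.7, 42.9 and 42.99 with DOX, 101, 104 and 113 with RepSox and 98.9, 83.1 and 87.6 with both. Its DOX libraries were the lowest 3 of the 12, with a 2.05-fold fall (log2 -1.04 ± 0.07, adjusted p = 2.10e-09) and a rise of log2 1.11 ± 0.07 (adjusted p = 5.61e-10) when RepSox was present with DOX. Of SEMA4G's exon bases (GRCh38 chromosome 10, 100969518 to 100985871, plus strand), 22.3% are shared with MRPL43 on the opposite strand, and the strand setting of the counting is not given in the sources used here. MRPL43, a mitochondrial ribosomal protein gene, was at 55.6, 60.9 and 50.2 CPM uninduced and 46.2, 52.96 and 46.9 CPM with DOX, overlapping groups (log2 -0.19 ± 0.08, adjusted p = 0.0741), and rose with RepSox by log2 0.33 ± 0.08 (adjusted p = 0.00201) with DOX and log2 0.25 ± 0.08 (adjusted p = 0.0287) without.

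SEMA4D, the ligand of PLXNB1 also known as CD100, was at 41.7, 44.3 and 44.1 CPM uninduced, 29.7, 32.5 and 30.8 with DOX, 50.6, 47.97 and 49.9 with RepSox and 48.5, 45.5 and 44.02 with both. Its DOX libraries were again the lowest of the 12 (log2 -0.48 ± 0.07, adjusted p = 1.05e-05). RepSox raised it by log2 0.56 ± 0.07 (adjusted p = 9.63e-07) with DOX. The smaller rise without DOX (log2 0.18 ± 0.07, adjusted p = 0.0465) lost its call without any 1 of the 6 libraries, by library totals, without a filter and with a replicate block, over an adjusted p range of 0.0178 to 0.166. SEMA4C, a ligand of PLXNB2, was at 15.5, 18.97 and 16.9 CPM uninduced, 22.7, 24.9 and 24.7 with DOX, 16.98, 17.3 and 16.9 with RepSox and 19.4, 17.1 and 14.6 with both. Only the DOX group stood apart, with a rise of log2 0.50 ± 0.10 (adjusted p = 4.22e-04) and a 1.42-fold fall (log2 -0.51 ± 0.10, adjusted p = 2.16e-04) when RepSox was added. SEMA4B, the highest ligand per kilobase, was at 243, 253 and 235 CPM uninduced, 203, 264 and 218 with DOX, 290.3, 296 and 296 with RepSox and 270.0, 233 and 223 with both. RepSox without DOX raised it by log2 0.26 ± 0.08 (adjusted p = 0.0265), a call that was lost without 5 of the 6 libraries in turn (adjusted p 0.000206 to 0.0982 over the alternatives); the other 2 comparisons with the DOX group were not called, but were without the second DOX library, the highest of its group for SEMA4B (log2 -0.20, adjusted p = 0.0269 for DOX, and log2 0.19, adjusted p = 0.0334 for RepSox, against 0.942 and 0.969 as the highest p among the alternatives). SEMA4F was at 3.65, 3.65 and 3.35 CPM uninduced and 2.05 to 3.74 CPM in the treated groups, with no call in HT-29 iZEB1.

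The class 6 and 7 ligands were all low in this line. SEMA6C, a transmembrane ligand of A-type plexins, had 12, 4 and 8 counts in the uninduced libraries, 30, 60 and 50 with DOX, 4, 2 and 10 with RepSox and 7, 10 and 7 with both. The DOX libraries were the highest 3 of 12, and both the rise with DOX (log2 2.37 ± 0.44, adjusted p = 2.40e-04) and the fall with RepSox in induced cells (log2 -2.41 ± 0.44, adjusted p = 1.28e-04) passed the test, at about 1 CPM in the higher group. SEMA7A, which is tethered to the membrane by a lipid anchor and binds an integrin and PLXNC1, was at 1.70, 1.53 and 1.38 CPM uninduced, 0.457, 0.846 and 0.588 with DOX, 1.41, 1.90 and 2.28 with RepSox and 1.13, 1.70 and 1.06 with both. It fell 2.42-fold with DOX (log2 -1.28 ± 0.28, adjusted p = 0.00117) and rose with RepSox in induced cells by log2 1.03 ± 0.28 (adjusted p = 0.00507). SEMA6A and SEMA6B stayed under 0.9 CPM in all 12 libraries and were not called. Table values of 2 outnumbered values of 1 (40207 against 30433) and values of 4 outnumbered values of 3, an excess of even low counts; its cause was not tested, and the counting intervals given for low members take each count as 1 independent read.

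NRP1, the co-receptor of SEMA3A and of vascular endothelial growth factor A, was at 26.5, 26.01 and 29.7 CPM uninduced, 46.8, 52.4 and 52.1 with DOX, 23.9, 26.3 and 26.1 with RepSox and 31.5, 29.4 and 32.9 with both. The 3 DOX libraries were the highest, and the group with both treatments came second by its mean, overlapping the uninduced one. DOX raised NRP1 1.85-fold in DMSO (log2 0.88 ± 0.08, adjusted p = 3.30e-08); in RepSox the change was log2 0.30 ± 0.08 (adjusted p = 0.112), with libraries that did not overlap. RepSox lowered NRP1 in induced cells (log2 -0.70 ± 0.08, adjusted p = 3.79e-07) and gave log2 -0.12 ± 0.08 (adjusted p = 0.315) in uninduced ones. NRP2 was close to the limit of counting in HT-29 iZEB1, with 2 to 16 counts per library, and was not called.

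The plexins of types B and D held the largest receptor changes. PLXND1, the receptor of SEMA3E and best known in vessel growth, was at 14.3, 15.2 and 14.8 CPM uninduced, 31.9, 40.6 and 31.04 with DOX, 15.2, 18.5 and 18.97 with RepSox and 16.5, 19.1 and 17.1 with both. The DOX libraries lay above all 9 others, with a rise of 2.34-fold (log2 1.23 ± 0.11, adjusted p = 3.01e-08) and a fall of 1.97-fold with RepSox (log2 -0.98 ± 0.11, adjusted p = 2.88e-07). PLXNB3, a receptor of SEMA5A, was at 5.98, 6.64 and 7.85 CPM uninduced, 11.4, 13.6 and 15.1 with DOX, 4.03, 3.59 and 4.62 with RepSox and 4.23, 4.37 and 4.45 with both, while SEMA5A itself had 0 counts in every library. RepSox brought PLXNB3 below the uninduced libraries with DOX (log2 -1.63 ± 0.13, adjusted p = 7.37e-09) and without it (log2 -0.75 ± 0.14, adjusted p = 5.69e-04), and DOX raised it by log2 0.97 ± 0.13 (adjusted p = 5.18e-06). Of PLXNB3's exon bases, 20.4% are shared with SRPK3 on the same strand; SRPK3, a protein kinase gene, was at 1.54 ± 0.372 CPM uninduced and 2.60 ± 0.154 CPM with DOX (SD, n = 3; log2 0.75 ± 0.20, adjusted p = 0.00488) and fell with RepSox in induced cells (log2 -0.90 ± 0.20, adjusted p = 9.00e-04), so that reads of these genes may be mixed.

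With DOX, PLXNB1 fell and PLXNB2 rose slightly. PLXNB1, the receptor of SEMA4D, was at 191, 188 and 182 CPM uninduced, 118, 133 and 144 with DOX, 166, 177 and 166 with RepSox and 166, 149.8 and 145 with both. It fell 1.42-fold with DOX (log2 -0.50 ± 0.07, adjusted p = 1.62e-05); its small rise with RepSox in induced cells (log2 0.21 ± 0.07, adjusted p = 0.0192) was not called without the first DOX library (0.14, adjusted p = 0.125) or the first DOX and RepSox library, by library totals or with the 2 groups alone (adjusted p 0.00507 to 0.125 over the alternatives). PLXNB2 was at 378, 409.7 and 357 CPM uninduced, 407, 519 and 424 with DOX, 311, 302 and 303 with RepSox and 323, 307 and 274 with both. Its DOX and uninduced libraries overlapped, and the rise (log2 0.24 ± 0.08, adjusted p = 0.0252) fell to 0.13 without the second DOX library (adjusted p = 0.157) and lost its call without uninduced library 1 or 3 as well (0.00311 to 0.157 over the alternatives). RepSox lowered PLXNB2 with DOX (log2 -0.59 ± 0.08, adjusted p = 8.64e-06) and without it (log2 -0.33 ± 0.08, adjusted p = 0.00678), in libraries that did not overlap.

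Type A plexins, the signalling partners of neuropilins, held no call with DOX. PLXNA3 was at 97.9, 105 and 95.7 CPM uninduced, 79.1, 94.4 and 97.4 with DOX, 66.5, 69.4 and 68.95 with RepSox and 68.6, 66.2 and 59.6 with both, so that all 6 RepSox libraries lay below the 6 others. RepSox lowered PLXNA3 1.46-fold without DOX (log2 -0.55 ± 0.08, adjusted p = 3.64e-05) and 1.40-fold with it (log2 -0.49 ± 0.08, adjusted p = 2.67e-05). PLXNA2 was at 80.6, 84.7 and 84.6 CPM uninduced, 76.02, 88.9 and 76.8 with DOX, 71.5, 67.8 and 70.8 with RepSox and 64.6, 68.99 and 65.2 with both, a like split of smaller size (log2 -0.26 ± 0.07, adjusted p = 0.00763 without DOX). PLXNA1, the highest A-type plexin per kilobase, ranged from 210.3 to 275 CPM over the 12 libraries with no call. PLXNC1, the SEMA7A receptor, stayed between 1.06 and 1.66 CPM and was not called.

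**Figure D3:**
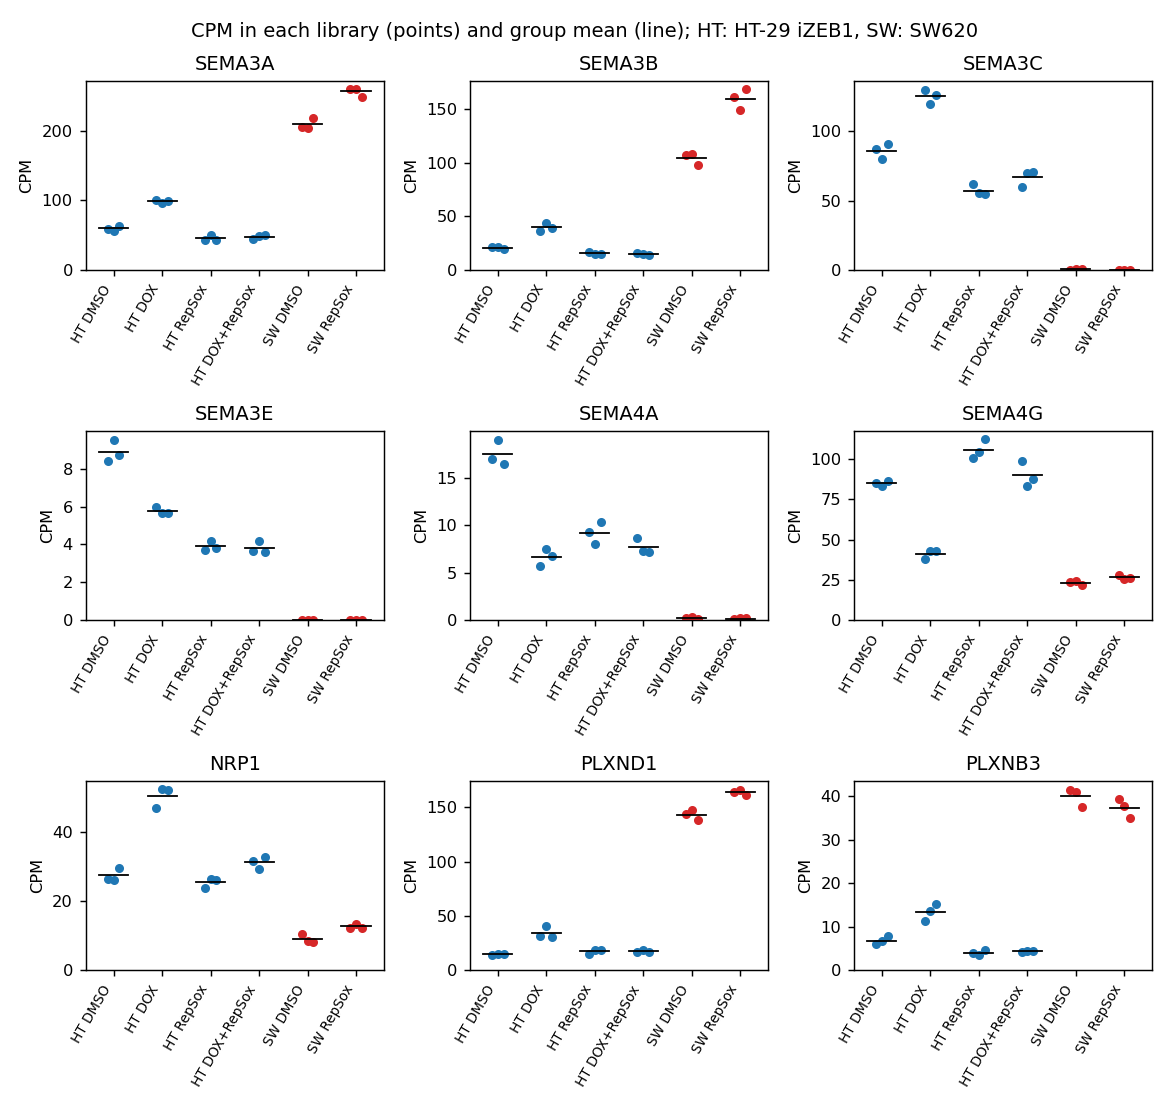
CPM in each library (points) and group mean (line) for 9 members in the 6 groups, on linear axes from 0, with HT-29 iZEB1 in blue and SW620 in red. SEMA3A, SEMA3B, SEMA3C, NRP1, PLXND1 and PLXNB3 are highest among HT-29 iZEB1 groups with DOX and DMSO, SEMA4G is lowest there, and SEMA3E and SEMA4A are lower in each treated group than in the uninduced one.

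Whether the RepSox effect differed between induced and uninduced cells was tested by the interaction, the log2 change with RepSox under DOX minus that without DOX. It was called for 12 of 26 members, 5 with a positive and 7 with a negative difference (13% and 9.61% of all genes; by library totals the members split was again 5 and 7, while the share of positive among all called genes went from 57.4% to 47.0%). Among the called members the most negative was PLXND1 (-1.22 ± 0.15, adjusted p = 8.80e-06), which RepSox lowered in induced cells and for which it gave log2 0.24 ± 0.11 (adjusted p = 0.117) in uninduced ones. That rise of PLXND1 in uninduced cells was called with the 2 groups alone (0.25, adjusted p = 0.0359) and without the first RepSox library (0.33, adjusted p = 0.0488), over a range of 0.0359 to 0.331. SEMA3B (-0.98 ± 0.12, adjusted p = 6.63e-06), PLXNB3 (-0.88 ± 0.19, adjusted p = 0.00232), SEMA3A (-0.66 ± 0.10, adjusted p = 8.94e-05), NRP1 (-0.58 ± 0.11, adjusted p = 6.87e-04) and SEMA4C (-0.50 ± 0.14, adjusted p = 0.0138) followed. SEMA4A had the largest positive value (1.12 ± 0.17, adjusted p = 8.62e-05), since RepSox lowered it without DOX and gave log2 0.20 with DOX, followed by SEMA4G (0.80 ± 0.10, adjusted p = 1.36e-05), SEMA3E (0.59 ± 0.16, adjusted p = 0.0129), SEMA4D (0.38 ± 0.09, adjusted p = 0.00609) and PLXNB1 (0.36 ± 0.10, adjusted p = 0.0146). The call of SEMA3C (-0.32 ± 0.11, adjusted p = 0.0361) was lost without any 1 of 6 of the 12 libraries (2 uninduced, 1 RepSox, 2 DOX, and 1 DOX and RepSox), over an adjusted p range of 0.0185 to 0.120. PLXNA2, PLXNA3 and PLXNB2, which RepSox lowered in both settings, had no call for the difference (-0.03 ± 0.09, adjusted p = 0.844, 0.06 ± 0.11, adjusted p = 0.746 and -0.26 ± 0.12, adjusted p = 0.123 in this order). SEMA6C, at low counts, gave -1.81 ± 0.76 (adjusted p = 0.0946) and was not called either.

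ZEB1 is known to bind E-boxes that read CACCTG, or CAGGTG on the other strand, so the 250 bases before each RefSeq start (GRCh38.p14) were searched for these letters on both strands. The table held windows for 23 of the 27 members, not for NRP1, SEMA3A, SEMA6A and SEMA6B. A match was found in 6 of 23 members with a window (26.1%) and in 6 of their 40 windows (15%), beside 20.6% of all 27305 genes and 17.5% of all 35116 windows in the table. The members had more windows per gene than all genes, so the shares by gene are not a like comparison. The 6 were PLXNB3 (2 matches, 186 and 179 bases before the start), SEMA3B (236), SEMA4A (211), SEMA3F (137), SEMA4F (136) and SEMA3G (106). SEMA3B, SEMA3F and SEMA4A also had windows at other starts, and none of those held a match. Below are the windows of 2 members that rose with DOX, of SEMA4A, which fell, and of SEMA3F, which was not called, each 5′ to 3′ on the plus strand with the matches in capitals: PLXNB3 at chrX:153763999-153764248, SEMA3B at chr3:50267402-50267651, SEMA4A at chr1:156149694-156149943 and SEMA3F at chr3:50154808-50155057.
PLXNB3: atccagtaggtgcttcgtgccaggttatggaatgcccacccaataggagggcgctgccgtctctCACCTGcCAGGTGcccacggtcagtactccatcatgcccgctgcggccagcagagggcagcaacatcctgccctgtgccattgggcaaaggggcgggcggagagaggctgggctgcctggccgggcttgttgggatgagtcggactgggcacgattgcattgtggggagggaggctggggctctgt
SEMA3B: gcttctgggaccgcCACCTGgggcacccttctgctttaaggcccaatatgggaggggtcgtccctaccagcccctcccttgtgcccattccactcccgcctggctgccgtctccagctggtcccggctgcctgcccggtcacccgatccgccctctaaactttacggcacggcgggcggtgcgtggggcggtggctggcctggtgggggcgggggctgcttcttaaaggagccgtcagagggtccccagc
SEMA4A: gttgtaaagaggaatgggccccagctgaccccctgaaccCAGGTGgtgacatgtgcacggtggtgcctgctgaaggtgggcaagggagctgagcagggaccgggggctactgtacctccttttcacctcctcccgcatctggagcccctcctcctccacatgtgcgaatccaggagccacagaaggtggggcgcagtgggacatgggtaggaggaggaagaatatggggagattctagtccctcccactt
SEMA3F: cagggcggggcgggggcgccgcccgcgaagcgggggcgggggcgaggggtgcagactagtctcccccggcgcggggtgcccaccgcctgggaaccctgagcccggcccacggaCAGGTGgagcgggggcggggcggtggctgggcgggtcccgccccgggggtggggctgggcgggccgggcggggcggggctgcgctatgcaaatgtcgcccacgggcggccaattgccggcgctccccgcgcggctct
PLXNB3 holds both forms of the word in immediate succession, separated by a single base. No window of PLXND1, SEMA3C, SEMA4G or SEMA4D held a match. A match is a string of letters, not a binding site, and these data measured no binding.

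Members of 1 class lie close together in places. SEMA3C, SEMA3E, SEMA3A and SEMA3D lie in this order on chromosome 7 between 80742538 and 85186855 (GRCh38, all on the minus strand); DOX raised SEMA3A and SEMA3C and lowered SEMA3E, and SEMA3D had 0 counts in 11 of 12 HT-29 iZEB1 libraries. SEMA3F (chromosome 3, 50155045 to 50189075) and SEMA3B (50267558 to 50277546) both lie on the plus strand, and of these only SEMA3B was called with DOX. The difference between them was not tested.

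Among 60 other genes of semaphorin signalling (ligands of neuropilins, co-receptors, GTPases and their regulators, proteases), 52 were tested in HT-29 iZEB1. This list was chosen with earlier results of these data known, so its shares, here and below, are descriptive and no test of the pathway. DOX raised 15 and lowered 14 of them (28.8% and 26.9%, beside 19.2% and 21.1% of all genes). FYN, a kinase downstream of SEMA3A, went from 8.91 ± 0.356 to 23.8 ± 1.58 CPM (log2 1.42 ± 0.09, adjusted p = 3.36e-10), MMP14, a membrane protease, from 6.11 ± 0.925 to 15.1 ± 1.11, and RRAS, a small GTPase that plexins inactivate, from 38.9 ± 4.73 to 68.1 ± 10.4. SH3BP1, a Rac-inactivating protein bound to plexins (log2 -1.64 ± 0.19, adjusted p = 1.21e-06), VEGFA, the growth factor that shares NRP1 with SEMA3A (log2 -0.96 ± 0.07, adjusted p = 1.47e-09), and the plexin-binding GTPase RHOD (log2 -0.71 ± 0.13, adjusted p = 2.42e-04) fell. VEGFA was at 102, 98.99 and 105 CPM uninduced and 52.4, 52.9 and 52.3 CPM with DOX. With RepSox in induced cells, 12 of the 52 rose and 22 fell (23.1% and 42.3%, beside 26.8% and 25.5% of all genes). MRAS, another small GTPase, went from 3.15, 2.28 and 2.82 to 19.2, 16.8 and 16.6 CPM (log2 2.66 ± 0.12, adjusted p = 2.54e-12), PTK7, a receptor-like protein, rose by log2 1.26 ± 0.07 (adjusted p = 9.18e-11), and VEGFA rose by log2 1.17 ± 0.07 (adjusted p = 7.29e-11). RRAS (log2 -1.18 ± 0.10, adjusted p = 1.96e-08), the actin-oxidising enzyme MICAL1 (log2 -1.15 ± 0.08, adjusted p = 7.14e-10) and RND3 (log2 -1.08 ± 0.09, adjusted p = 5.90e-09) fell. RepSox without DOX raised 6 and lowered 11 (11.5% and 21.2%, beside 12.5% and 12.8% of all genes). DOX in RepSox-treated cells raised 1 of the 52 and lowered 0, where 0.477% of all genes were called in either direction.

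The next question was how SW620, a line with little CDH1 (9.97 ± 1.83 CPM), compares with uninduced HT-29 iZEB1. All 27 members were called, 14 higher and 13 lower in SW620, where 40.1% of all 19107 genes were called higher and 36.5% lower. SEMA3D reached 10 counts in no HT-29 iZEB1 library, and SEMA3E and SEMA4A in fewer than 3 SW620 libraries. These members were used only through the line where they are high, so their difference between the lines is partly given by the rule. Of the 17 semaphorins 11 were higher in SW620, and of the 8 plexins 6 were lower. Scaling by library totals shifted the median of all genes by 0.12 on the log2 scale and left the members split at 14 and 13.

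Of the neuropilins, NRP1 was lower and NRP2 higher in SW620. NRP1 was at 10.5, 8.61 and 8.20 CPM in SW620, 3.02-fold below uninduced HT-29 iZEB1. NRP2, the co-receptor preferred by SEMA3F, was at 51.1, 48.3 and 50.6 CPM in SW620 against 0.283, 0.170 and 0.394, a ratio of 177 (exact 95% interval 124 to 263 from summed counts of 5896 and 30, for counting error only). Class 3 ligands also differed by line. SEMA3C had 51 counts in the 3 SW620 DMSO libraries together, a level 198-fold lower (151 to 266) than in HT-29 iZEB1. SEMA3E had 0 counts in all 6 SW620 libraries, so that with a floor of 3 counts per library (0.0763 CPM) it was at least 116-fold lower in DMSO. SEMA3D, a class 3 ligand studied in heart and vessel development, was at 18.2, 15.8 and 19.7 CPM in SW620 and at 0 counts in uninduced HT-29 iZEB1, at least 211-fold higher in SW620 by the same floor (0.0847 CPM). SEMA3G was at 9.75, 9.20 and 9.40 CPM (14.3-fold higher), SEMA3B at 107, 108 and 97.6 CPM (5.03-fold) and SEMA3A at 205, 204 and 218 CPM (3.49-fold). SEMA3F was closest between the lines (54.2, 50.9 and 50.8 CPM, 1.22-fold).

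Class 4 was split. SEMA4A had 28 counts in all in SW620 DMSO, a level 73.5-fold lower (50.7 to 111), and SEMA4B was at 25.6, 25.8 and 23.2 CPM (9.80-fold lower), SEMA4G at 23.9, 24.5 and 21.5 (3.64-fold lower) and SEMA4D at 12.6, 14.6 and 13 (3.24-fold lower). SEMA4F at 17.2, 18.3 and 17.2 CPM (4.95-fold) and SEMA4C at 33.6, 29.8 and 31.1 CPM (1.84-fold) were higher. So were SEMA6B at 12.1, 11.2 and 12.8 CPM (14.97-fold), SEMA7A at 12.2, 11.5 and 10.99 CPM (7.52-fold), SEMA6C (ratio 8.78, 5.76 to 14.0) and SEMA6A (ratio 3.58, 2.43 to 5.41). Of the plexins, PLXND1 at 144, 147 and 138 CPM (9.70-fold) and PLXNB3 at 41.5, 40.98 and 37.4 CPM (5.85-fold) were higher in SW620. SRPK3, which shares exon bases with PLXNB3, was also higher there (4.53-fold, log2 2.18 ± 0.17, adjusted p = 1.15e-11), so that reads of these genes may be mixed here as well. PLXNA2 was at 1.61, 1.336 and 1.16 CPM in SW620, 60.9-fold below HT-29 iZEB1, and PLXNA1 (102, 101 and 98.3 CPM, 2.46-fold), PLXNA3 (47.6, 47.1 and 42.7 CPM, 2.17-fold), PLXNB2 (216, 219 and 200.1 CPM, 1.80-fold), PLXNC1 (2.26-fold) and PLXNB1 (1.32-fold) were lower too. The largest adjusted p among the 27 was 0.00231, for SEMA3F. Standard errors were 0.06 to 0.39 on the log2 scale for the 25 members counted in both lines. For the pathway list, 18 of 56 genes were higher and 33 lower in SW620 (32.1% and 58.9%, beside 40.1% and 36.5% of all genes).

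The last question was what RepSox did in SW620. Of 25 members tested, 11 rose and 3 fell, where 10.2% of all genes rose and 9.24% fell (by library totals 10 and 4 members, with the share of rises among all called genes going from 52.5% to 39.5%). Without SW620 DMSO library 2 or RepSox library 1, 9 rose and 1 fell. SEMA7A went from 12.2, 11.5 and 10.99 to 18.6, 21.5 and 19.96 CPM (log2 0.79 ± 0.08, adjusted p = 6.62e-08) and SEMA3B from 107, 108 and 97.6 to 161, 149 and 168 CPM (log2 0.61 ± 0.05, adjusted p = 3.13e-09), with no overlap of libraries. SEMA4B rose to 34.2, 37.3 and 37.98 CPM (log2 0.55 ± 0.07, adjusted p = 7.86e-07), and both neuropilins rose, NRP1 to 12.4, 13.5 and 12.4 CPM (log2 0.49 ± 0.10, adjusted p = 5.99e-04) and NRP2 to 67.6, 64.4 and 61.3 CPM (log2 0.37 ± 0.05, adjusted p = 2.19e-05). SEMA3A reached 260.1, 259.6 and 248 CPM (log2 0.29 ± 0.04, adjusted p = 2.66e-05), SEMA3F 62.3, 63.9 and 63.1 CPM (log2 0.28 ± 0.05, adjusted p = 3.34e-04) and PLXND1 164, 166 and 161 CPM (log2 0.19 ± 0.04, adjusted p = 0.00262). SEMA6C fell from 1.79, 2.24 and 1.94 to 0.726, 0.590 and 1.24 CPM (log2 -1.22 ± 0.25, adjusted p = 8.20e-04). The SW620 level of SEMA3C, 0.281, 0.462 and 0.553 and then 0.233, 0.128 and 0.184 CPM with RepSox, gave log2 -1.24 ± 0.45 (adjusted p = 0.0516), called by library totals and without the first SW620 DMSO library (0.0404 to 0.199 over the alternatives). CDH1 went from 9.97 ± 1.83 to 18.2 ± 0.352 CPM in the same libraries, and ZEB1 gave log2 0.14 ± 0.08 (adjusted p = 0.234).

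Of the 14 calls in SW620, 5 were lost in some alternative. SEMA4G (log2 0.19 ± 0.07, adjusted p = 0.0456) was not called in any of 10 alternatives (adjusted p 0.0512 to 0.194; such ranges follow for the others). PLXNA3 (log2 -0.21 ± 0.06, adjusted p = 0.0191) lost its call without the first or second SW620 DMSO library or the first or second RepSox library (0.00197 to 0.152), and PLXNA1 (log2 0.19 ± 0.05, adjusted p = 0.00661) without the first RepSox library (0.00133 to 0.0751). SEMA4F (log2 -0.27 ± 0.07, adjusted p = 0.0125) lost it without the second DMSO or the first RepSox library (0.00577 to 0.0717), and SEMA6B (log2 0.30 ± 0.08, adjusted p = 0.0101) without DMSO library 2 or RepSox library 3 (0.00307 to 0.0709). SEMA3D, SEMA3G, SEMA4C, SEMA4D, SEMA6A, PLXNA2, PLXNB1, PLXNB2, PLXNB3 and PLXNC1 were not called either. Of the pathway list, 13 of 55 genes rose and 5 fell (23.6% and 9.09%, beside 10.2% and 9.24% of all genes).

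**Figure D4:**
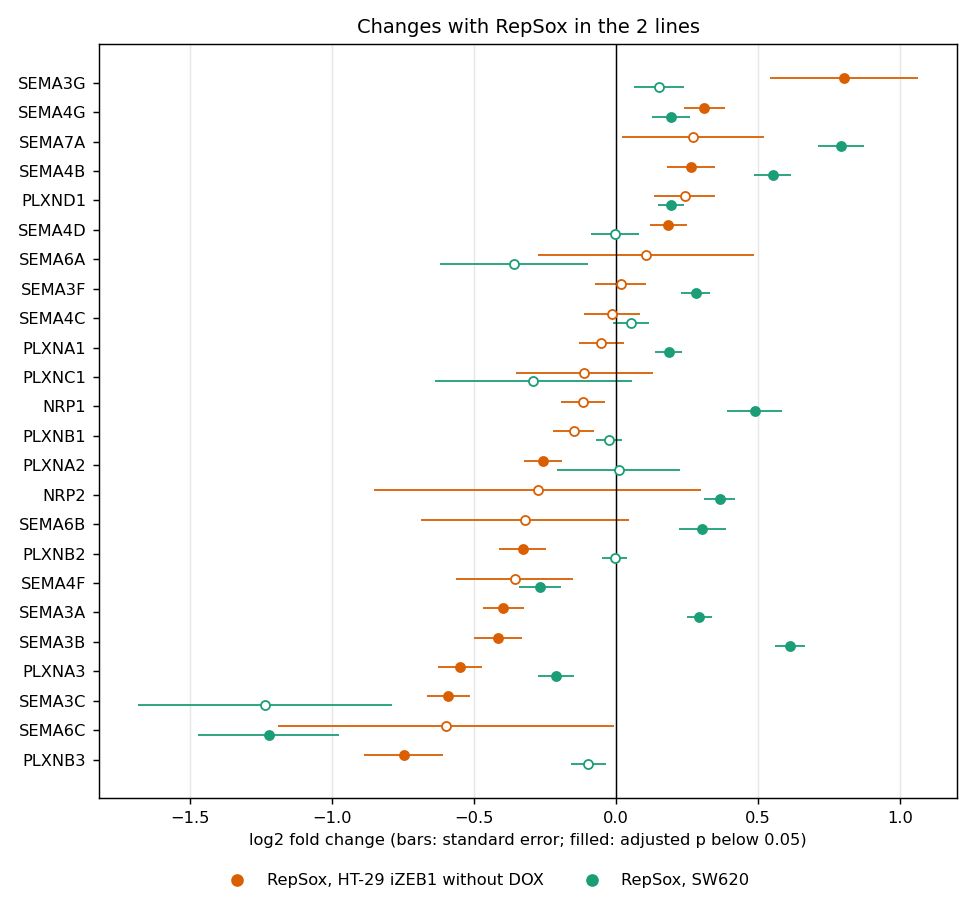
Log2 fold change with RepSox and its standard error for the 24 members tested in both lines, in HT-29 iZEB1 without DOX (orange) and in SW620 (green); filled symbols have an adjusted p below 0.05. SEMA3A and SEMA3B carry filled symbols below 0 in HT-29 iZEB1 and above 0 in SW620.

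The difference between the lines in the RepSox effect (SW620 minus uninduced HT-29 iZEB1, which share no library) was called for 5 of 27 members, all more positive in SW620, beside 5.39% of all genes more positive and 4.99% more negative; SEMA3D and SEMA3E had no counts in 1 of the lines, so that no difference could be measured for them. SEMA3B differed by log2 1.02 ± 0.10 (adjusted p = 1.56e-07): RepSox took it from 20.7 ± 0.690 to 15.6 ± 0.912 CPM in HT-29 iZEB1 and from 104 ± 5.74 to 159 ± 9.97 CPM in SW620 (SD, n = 3). SEMA3A differed by 0.68 ± 0.09 (adjusted p = 5.60e-06), with a 1.32-fold fall (log2 -0.40 ± 0.07, adjusted p = 4.70e-04) in HT-29 iZEB1 and a rise of log2 0.29 ± 0.04 (adjusted p = 2.66e-05) in SW620. NRP1 differed by 0.60 ± 0.13 (adjusted p = 0.00217) and was called only in SW620, and PLXNB3 by 0.64 ± 0.16 (adjusted p = 0.00740) and was called only in HT-29 iZEB1. The value for PLXNA3 (0.33 ± 0.11, adjusted p = 0.0496) lost its call without 9 of the 12 libraries in turn, 5 of HT-29 iZEB1 and 4 of SW620, and with a replicate block (0.0126 to 0.121 over the alternatives). PLXNB2 (0.32 ± 0.11, adjusted p = 0.0554) was not called, but was with DESeq2 (adjusted p = 0.0197), with a replicate block (0.0290), without a filter on low counts (0.0107) and without uninduced HT-29 iZEB1 library 3 (0.0329), over a range of 0.0107 to 0.129. The other 19 measurable members, among them SEMA4G (-0.12 ± 0.10, adjusted p = 0.524), SEMA4B (0.28 ± 0.11, adjusted p = 0.130) and PLXND1 (-0.06 ± 0.12, adjusted p = 0.867), had no call, which does not show that they respond alike. In the pathway list 11 of 56 genes were more positive and 5 more negative in SW620 (19.6% and 8.93%, beside the shares of all genes above).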

How the data were processed

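The deposited table holds raw counts of reads per gene symbol for 18 libraries, as whole numbers that were not normalised or pooled by the authors. FastQC 0.11.9, the aligner HISAT2 2.2.0, the counter featureCounts 2.0.0, the package DESeq2 1.34.0 and GRCh38.p13 are named in the submitters' processing notes. Whether counting used strand, and which options and gene annotation it used, is not given in the sources used here. Per the labels' protocols, RNA was extracted with a column kit, treated with DNase and sequenced on a BGISEQ-500.

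The members and gene lists were chosen with earlier results of these data known. Counts were tested with edgeR 4.0.16 (R 4.3.3; TMM scaling, filterByExpr with a minimum count of 10, quasi-likelihood F-test, Benjamini-Hochberg adjustment over all genes tested, called below 0.05). One fit took the 12 libraries of HT-29 iZEB1 (16978 genes, biological coefficient of variation 7.82%), another the 6 of SW620 (17147 genes, 5.10%), and a last one all 18 for comparisons between lines (19107 genes, 7.04%), without covariates. SEMA3D was filtered out of the first fit, and SEMA3E and SEMA4A out of the second. Levels are CPM on TMM-scaled library sizes over all 18 libraries, with 36511596 to 39792807 counts each. Exon lengths and overlaps come from GENCODE 29 (GRCh38), promoter windows from RefSeq. The fits were checked on simulated data.

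Every member is named. Values for each library are given for members called with a fold change of 1.5 or more and 2 CPM or more in the higher group in at least 1 comparison, and for some others. Of the pathway list, the 3 largest rises and falls at 5 CPM or more were named for DOX in DMSO and for RepSox with DOX. Alternatives were library totals alone, no filter, DESeq2 1.42.0, a replicate block, the groups compared alone, and each library left out in turn. No 2 libraries of the same group held identical values.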

Additional observations from a re-analysis of the deposited data

Results flagged for a closer look

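Groups of 3 libraries are too small for a check of single outlying libraries. For 12 members the RepSox effect differed between induced and uninduced HT-29 iZEB1 by the interaction test. The differences, RepSox effect with DOX minus that without on the log2 scale, were 1.12 for SEMA4A, 0.80 for SEMA4G, 0.59 for SEMA3E, 0.38 for SEMA4D and 0.36 for PLXNB1. They were -0.32 for SEMA3C, -0.50 for SEMA4C, -0.58 for NRP1, -0.66 for SEMA3A, -0.88 for PLXNB3, -0.98 for SEMA3B and -1.22 for PLXND1. ZEB1 itself differed 23.8-fold between the induced groups with and without RepSox, and its part in these differences was not tested.

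For 5 members the RepSox effect differed between SW620 and uninduced HT-29 iZEB1, by 1.02 for SEMA3B, 0.68 for SEMA3A, 0.64 for PLXNB3, 0.60 for NRP1 and 0.33 for PLXNA3 on the log2 scale. SEMA3A and SEMA3B fell in one line and rose in the other, and each of these 4 changes passed its own test.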

How the results depend on the processing

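Of 209 member values, 102 were called. Over 2536 recomputed values, 2454 kept their direction and their side of the threshold, 64 lost a call, 18 gained one and 0 reversed. Calls were lost in some alternative for 12 of the 102 values, each given with its range beside the result. Summed over both directions, the counts of members and of genes called stayed within 1.5 times under every alternative, except for DOX in cells with RepSox. There the members called went from 0 to 2 without a filter and to 1 with DESeq2, and the genes called from 81 to 584 and 260. Leaving out 1 library gave 0 to 4 members and 27 to 1670 genes; the upper values came without the first DOX and RepSox library, and the cause was not tested. By direction, the members raised by RepSox without DOX went from 4 to 2 without a filter and to 1 or 2 without any 1 library, and those lowered in SW620 from 3 to 1 without DMSO library 2 or RepSox library 1; without that DMSO library the genes lowered in SW620 went from 1584 to 1055. Libraries of different groups with the same replicate number shared little of their deviation from the group mean (correlations from -0.186 to 0.102 over 11 pairs of groups, in 0 of which all exceeded 0.1). Such correlations cannot show whether these libraries had a culture or day in common. With a replicate block, the members called were 15 for DOX in DMSO, 16 for RepSox with DOX, 12 for RepSox without DOX, 0 for DOX in RepSox, 12 for the interaction, 13 for RepSox in SW620, 27 between lines and 5 for the difference in RepSox effect, 4 of them shared with the fit without the block. The block left 3 calls above the threshold, SEMA4D for RepSox without DOX (adjusted p = 0.0552), SEMA4G for RepSox in SW620 (0.0730) and PLXNA3 for the difference in RepSox effect (0.0530), and brought PLXNB2 below it for that difference (0.0290). Depth limits SEMA3D, SEMA3G, SEMA6A, SEMA6B, SEMA6C, SEMA7A, NRP2 and PLXNC1 in HT-29 iZEB1, all under 2 CPM in DMSO. In SW620 the same holds for SEMA3C, SEMA3E, SEMA4A, SEMA6A, SEMA6C, PLXNA2 and PLXNC1.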
